A study of Mus musculus with 18 samples.

Results

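The genes that write, erase and read DNA methylation, together with the subunits of the Polycomb complexes, were examined in mouse ES cells (embryonic stem cells) and in the neural progenitors and neurons made from them, with and without Hmgn1, which encodes a nucleosome-binding protein. The set holds 39 genes named by function: the DNA methyltransferases and their UHRF partners, the TET dioxygenases, the MBD proteins, and members of Polycomb repressive complexes PRC2 and PRC1. Of the 39 genes, 38 were tested, among 14432 genes tested in all. Rybp, a subunit of PRC1 complexes that lack a CBX protein, was not tested because both of its probe sets also carry the symbol Rybp-ps.

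Gene expression was measured on 18 Affymetrix arrays, 3 for each of 3 cell types in 2 genotypes. Every group was of strain C57/B6, and the genotype was Hmgn1+/+ or Hmgn1-/-. ES cells were kept in medium with LIF and serum replacement, on feeder fibroblasts treated with mitomycin-c or without feeders, and which arrays came from which condition is not stated. Neural progenitors and neurons were made from ES cells with a kit for dopaminergic neurons, so the neural groups are cultures differentiated in a dish. The arrays of a group are called biological replicates, but the number of cell lines per genotype and of separate differentiations is not given. The p-values therefore measure the spread between arrays as deposited, which may be technical, and a genotype difference cannot be told apart from other differences between the lines. In bulk samples such as these, fewer cells of a type and less RNA per cell cannot be told apart.

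DNA methylation is placed on new sites by DNMT3A and DNMT3B with the catalytically inactive partner DNMT3L, and is copied after replication by DNMT1, which UHRF1 recruits to newly made DNA. TET enzymes oxidise methylated cytosine, and MBD proteins are named for a domain that in several of them binds methylated DNA. PRC2 methylates histone H3 on lysine 27 through EZH1 or EZH2 with EED and SUZ12. PRC1 ubiquitinates histone H2A through RING1 or RNF2 paired with a PCGF protein, and its canonical forms add a CBX protein, which binds the PRC2 mark, and a PHC protein. Both systems are known for holding developmental genes silent in ES cells, and the makeup of PRC1 is known to change as ES cells differentiate.

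Promoter sequences from RefSeq (build GRCm38.p6) covered 250 bases before to 50 bases after a start site and were found for 34 members, with 52 promoters among them. An E2F-type motif, written TTTCCCGC, TTTCGCGC, TTTGCCGC or TTTGGCGC and searched on both strands, was in 5 of the 52 member promoters (9.62%) and in 2.26% of all 32851 promoters in the table. Each of these motifs holds a CpG, and CpG number differed between the member promoters and the table, as given below. The shares were not compared at a like CpG number, and the table was not limited to tested genes. The search was chosen after the values were seen. E2F factors are known to drive genes of DNA replication. The 5 promoters belonged to Dnmt1, Uhrf1, Ezh2, Suz12 and Phf19, and 4 are shown because they set 3 genes that fell from progenitors to neurons beside Suz12, whose second-step difference was not called. All run 5′ to 3′ in the direction of transcription, and the capitals mark the motif on either strand. A match describes letters only and does not show that a factor binds there. The Dnmt1 promoter lies at chr9:20952574-20952873, minus strand, the Uhrf1 promoter at chr17:56304063-56304362, plus strand, the Ezh2 promoter at chr6:47594981-47595280, minus strand, and the Suz12 promoter at chr11:79992856-79993155, plus strand.
Dnmt1: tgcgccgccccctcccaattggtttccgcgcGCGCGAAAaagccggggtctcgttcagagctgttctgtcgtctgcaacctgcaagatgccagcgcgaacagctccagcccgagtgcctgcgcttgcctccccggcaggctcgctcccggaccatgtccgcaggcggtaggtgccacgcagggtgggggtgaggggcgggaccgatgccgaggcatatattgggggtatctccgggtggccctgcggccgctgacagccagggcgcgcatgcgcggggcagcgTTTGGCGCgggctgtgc
Uhrf1: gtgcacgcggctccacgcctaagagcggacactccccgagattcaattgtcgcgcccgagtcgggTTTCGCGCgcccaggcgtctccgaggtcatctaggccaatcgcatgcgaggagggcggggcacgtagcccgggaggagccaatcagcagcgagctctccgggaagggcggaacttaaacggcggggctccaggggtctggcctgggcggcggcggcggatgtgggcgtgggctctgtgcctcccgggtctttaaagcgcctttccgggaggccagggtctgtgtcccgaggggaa
Ezh2: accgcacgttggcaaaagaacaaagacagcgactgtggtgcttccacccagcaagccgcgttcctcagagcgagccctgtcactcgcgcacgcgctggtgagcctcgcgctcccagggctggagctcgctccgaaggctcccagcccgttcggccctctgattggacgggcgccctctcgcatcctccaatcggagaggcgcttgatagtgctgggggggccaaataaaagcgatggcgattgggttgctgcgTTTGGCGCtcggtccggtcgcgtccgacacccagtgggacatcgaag
Suz12: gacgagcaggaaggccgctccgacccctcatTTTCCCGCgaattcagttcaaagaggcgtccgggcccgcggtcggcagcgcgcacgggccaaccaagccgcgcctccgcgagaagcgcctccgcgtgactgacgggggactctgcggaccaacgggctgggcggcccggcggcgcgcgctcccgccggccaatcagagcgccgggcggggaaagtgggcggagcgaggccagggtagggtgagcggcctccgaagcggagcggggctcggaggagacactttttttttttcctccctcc

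Member promoters also held more CpG dinucleotides, the sites that DNA methyltransferases act on, than the table as a whole. The median was 23 CpGs per 300 bases in the 52 member promoters and 7 in all promoters, and member promoters ran from 2 to 57. The promoters of Dnmt3l and Dnmt3b are shown because both genes fell steeply when ES cells became progenitors while their promoters differed widely in CpG number. Dnmt3b had 30 CpGs at chr2:153649199-153649498, plus strand. Dnmt3l had 6 at chr10:78042037-78042336, plus strand, and its other 2 promoters had 4 and 3. Capitals mark each CpG.
Dnmt3b: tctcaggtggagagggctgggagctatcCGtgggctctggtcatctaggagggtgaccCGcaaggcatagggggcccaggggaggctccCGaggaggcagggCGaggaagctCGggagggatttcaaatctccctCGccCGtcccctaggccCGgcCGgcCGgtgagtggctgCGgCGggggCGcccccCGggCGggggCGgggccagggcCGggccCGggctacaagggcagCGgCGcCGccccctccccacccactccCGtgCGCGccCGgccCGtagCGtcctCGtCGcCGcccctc
Dnmt3l: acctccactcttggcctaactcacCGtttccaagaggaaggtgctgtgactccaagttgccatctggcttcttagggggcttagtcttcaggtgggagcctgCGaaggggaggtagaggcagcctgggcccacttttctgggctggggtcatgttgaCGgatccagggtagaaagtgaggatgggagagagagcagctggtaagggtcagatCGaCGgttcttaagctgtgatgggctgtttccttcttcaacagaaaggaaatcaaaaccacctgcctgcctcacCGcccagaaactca

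Hmgn1 itself, read from its probe set with the highest mean, was lower in -/- cells of each type, with no overlap between genotypes. Its signal on that probe set was not lost. Its intensity was 11022 to 11332 in +/+ against 8769.9 to 9079 in -/- ES cells, 10841 to 11594 against 8654 to 9219 for progenitors, and 8735 to 9259 against 7119 to 7313 for neurons. Where the probes lie relative to the altered part of the gene is not stated, and other Hmgn1 probe sets were not examined. How much Hmgn1 RNA remained in -/- cells therefore cannot be read from these values. The defining markers of each labelled cell type were high in it, beside markers of other types: the summed intensity of 10 pluripotency genes was 50310.4 to 53197 in +/+ ES cells and 7123 to 7497 in +/+ progenitors, and that of 10 neuronal genes was 7419 to 7646 in +/+ progenitors and 37100 to 41456 in +/+ neurons. That of 10 neural progenitor genes was 2609 to 2953 in +/+ ES cells and 32440.2 to 33121 in +/+ progenitors, and was still 26439.5 to 28693 in +/+ neurons. Markers of non-neural cells moved with the differentiation steps too. In +/+ cells the summed intensity of 10 fibroblast and mesenchyme markers was 1408 to 1496 in ES cells, 13256 to 14063 in progenitors and 18495 to 21797 in neurons, and that of 10 endoderm markers was 398 to 492, 8089 to 8186 and 5155 to 8150.1. Their part in the members' step changes was not tested. In ES cells, +/+ replicate 3 stood apart, where 32 genes lay over 2-fold away from the other 2 arrays' mean, against 0 to 12 on the other arrays, and 0 members among them. Markers of several cell types also differed between genotypes. Of the fibroblast and mesenchyme markers, 9 of 10 were higher in -/- progenitors (summed 22830.4 to 23113 in -/-) and 7 of 10 in -/- neurons (29583 to 34342). Of the endoderm markers, 6 of 10 were lower and 1 was higher in -/- progenitors (3689 to 3989), and 4 of 10 were lower in -/- neurons (4602 to 5386). Of the pluripotency genes, 6 of 10 were lower in -/- progenitors (6137 to 6928), 2 of 10 in -/- neurons and 1 of 10 in -/- ES cells.

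Differentiation moved most members, as it did most genes. From +/+ ES cells to +/+ progenitors, 14 of 38 members rose and 19 fell at a limma adjusted p under 0.05, or 86.8% of them. Of all tested genes 78.5% were called, 41.3% higher and 37.2% lower. From +/+ progenitors to +/+ neurons 10 rose and 21 fell, or 81.6%, where 79% of all genes were called, 34.6% higher and 44.4% lower. The median log2 difference of the members was -0.14 at the first step and -0.17 at the second. All tested genes had medians of 0.02 and -0.11. In +/+ cells the arrays of the cell types compared did not overlap for 34 of 38 members at each step. Of all tested genes, 80.6% did not overlap at the first step and 82.6% at the second. In -/- cells these shares of all genes were 79.7% and 83.8%. The -/- cells, which share no array with the +/+ cells, gave 13 rises and 19 falls at the first step (84.2% of members, and 77.7% of all genes with 39.8% higher and 38% lower) and 9 rises and 21 falls at the second (78.9% of members, and 80.9% of all genes with 35.2% higher and 45.6% lower). At the first step 11 members rose in both genotypes, 19 fell in both, and 0 were called in opposite directions. At the second step 8 rose in both, 20 fell in both, and 0 were called in opposite directions. These joint counts were not made over all tested genes, so no background share stands beside them. Both genotypes were fitted together with a shared estimate of the spread.

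**Figure D1:**
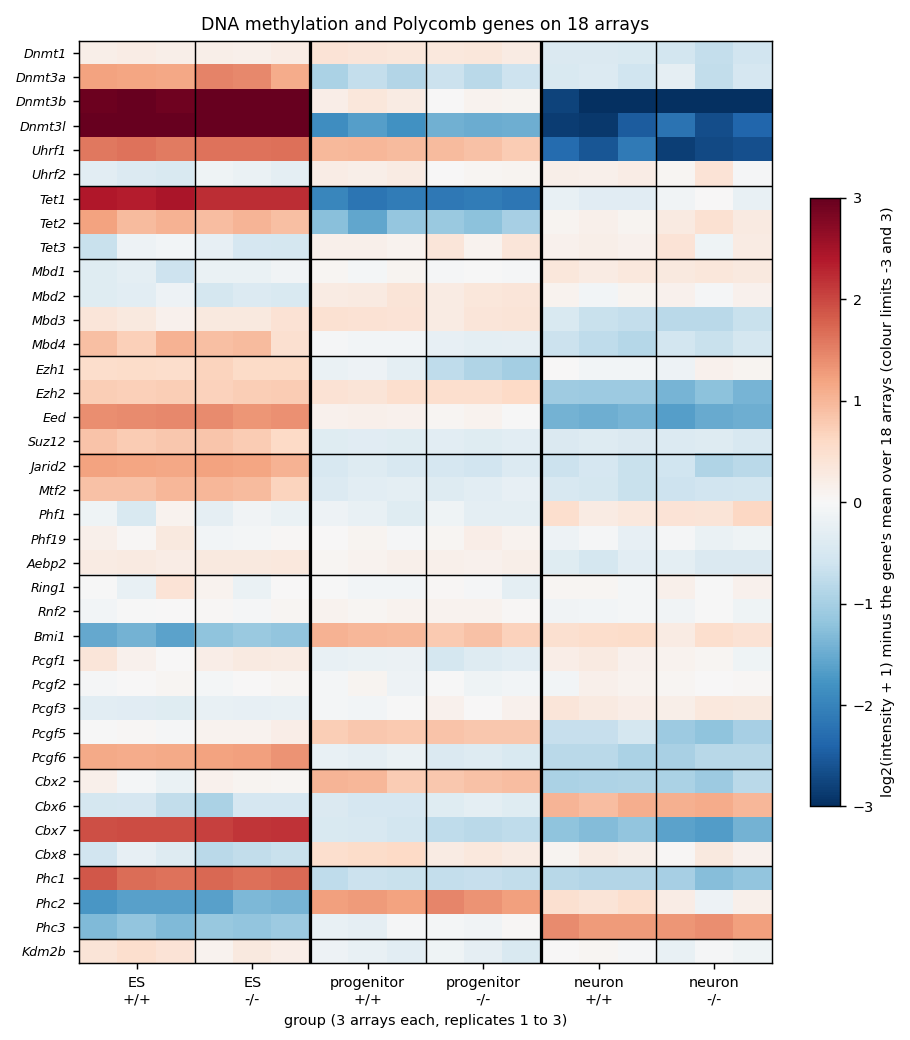
Each row is a member and each column 1 of the 18 arrays. Colour gives log2(intensity + 1) minus that gene's mean over all arrays, with colour limits of -3 and 3, thick lines between cell types and thin horizontal lines between functional groups. Dnmt3b, Dnmt3l and Tet1 are dark red on all 6 ES arrays, and Uhrf1 is dark blue on all 6 neuron arrays.

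Dnmt3b, a de novo methyltransferase, and its cofactor Dnmt3l fell when ES cells became progenitors. Dnmt3l fell by 5.88 on the log2 scale and Dnmt3b by 2.69, whereas Dnmt1, the maintenance enzyme, rose slightly. From progenitors to neurons Dnmt3b fell by 3.30 and Uhrf1 fell by 3.31, and Dnmt1 fell by 0.82. Dnmt3b read 5263, 5421 and 5196 on the +/+ ES arrays, 786, 861 and 808 on the progenitor arrays and 98.3, 68.7 and 82.2 on the neuron arrays. Dnmt3b in the -/- groups was at 6332, 6581 and 6857 (ES cells), 685, 728 and 723 (progenitors) and 54.1, 63.5 and 59 (neurons). Each cell type was separate from the others in both genotypes. In +/+ cells Dnmt3b fell 6.47-fold at the first step (log2 difference -2.69, SE 0.09, adjusted p 8.11e-14) and 9.84-fold at the second (log2 difference -3.30, SE 0.09, adjusted p 9.09e-15).

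Dnmt3l read 2610.2, 2841 and 2887 on the +/+ ES arrays, 43.7, 50.6 and 44.6 on the progenitor arrays and 21.5, 20.8 and 27.7 on the neuron arrays. Dnmt3l in the -/- groups was at 2904, 3028 and 3788 (ES cells), 58.1, 56.7 and 57.5 (progenitors) and 33.6, 24.5 and 30 (neurons). Dnmt3l was thus high in ES cells alone, with a first-step fall of 58.8-fold in +/+ cells (log2 difference -5.88, SE 0.12, adjusted p 1.18e-16). The 40th percentile of an array, taken here as the background level, was 36.6 to 38.7, and Dnmt3l was under it on all 6 neuron arrays. Its second-step fall was therefore at least 1.24-fold in +/+ and at least 1.51-fold in -/- cells. Every other tested member was above that level on all 18 arrays.

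Dnmt1 read 2087, 2149 and 2074 on the +/+ ES arrays, 2437, 2389 and 2350.0 on the progenitor arrays and 1369, 1358 and 1338 on the neuron arrays. Dnmt1 in the -/- groups was at 2104, 2061 and 2172 (ES cells), 2318, 2342 and 2203 (progenitors) and 1255, 1133 and 1243 (neurons). Dnmt1 was highest on the progenitor arrays and lowest on the neuron arrays, without overlap between cell types. Its rise at the first step in +/+ cells was small (log2 difference 0.19, SE 0.05, adjusted p 0.0023), and averaging its 3 probe sets ended that call (log2 difference 0.06, adjusted p 0.284). The second-step fall was 1.76-fold (log2 difference -0.82, SE 0.05, adjusted p 8.68e-11).

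Uhrf1 read 4408, 4539.6 and 4322 on the +/+ ES arrays, 2874, 2942 and 2861 on the progenitor arrays and 295, 246 and 338 on the neuron arrays. Uhrf1 in the -/- groups was at 4518, 4546 and 4621 (ES cells), 2848, 2728 and 2507 (progenitors) and 207, 223 and 235 (neurons). Uhrf1, the partner that brings DNMT1 to replicated DNA, stayed high in progenitors and was low on every neuron array. Its second-step fall was 9.91-fold in +/+ cells (log2 difference -3.31, SE 0.09, adjusted p 3.16e-15), after a first-step fall of 1.53-fold (log2 difference -0.61, SE 0.09, adjusted p 5.1e-06). Both this gene and Dnmt1 hold the E2F-type motif shown above, as does Ezh2. Dnmt3b, which had no match, fell at the second step too, and the part of the motif was not tested. Beside these falls, all 19 tested proliferation genes of a list of 20 fell at the second step in +/+ cells, and the part of cell division in the members' falls was not tested. Uhrf2 read 418, 392 and 379 on the +/+ ES arrays, 607, 584 and 614 on the progenitor arrays and 583, 580.2 and 612 on the neuron arrays. Uhrf2 in the -/- groups was at 473, 456 and 424 (ES cells), 527, 546 and 555 (progenitors) and 544, 692 and 506 (neurons). Uhrf2, a relative of Uhrf1, rose at the first step (log2 difference 0.60, SE 0.09, adjusted p 6.77e-06) and was not called at the second (log2 difference -0.02, SE 0.09, adjusted p 0.812).

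Dnmt3a could not be described by 1 value, because its 5 probe sets disagreed. Dnmt3a read 3690.5, 3628 and 3568 on the +/+ ES arrays, 821, 960.3 and 861 on the progenitor arrays and 1157, 1191 and 1052 on the neuron arrays. Dnmt3a in the -/- groups was at 4457, 4329.9 and 3456 (ES cells), 1014, 903 and 1034 (progenitors) and 1318, 946 and 1126 (neurons). That probe set, which had the highest mean of the 5 and was used in the tests, fell at the first step in +/+ cells (log2 difference -2.04, SE 0.11, adjusted p 2.6e-11) and rose at the second (log2 difference 0.36, SE 0.11, adjusted p 0.0068). At the second step the other 4 probe sets gave log2 differences of 1.62, -1.48, 1.09 and 2.24. At the first they ran from -2.41 to 0.49. A direction for Dnmt3a therefore depends on the probe set at both steps, and the transcript that each probe set reads was not determined here.

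**Figure D2:**
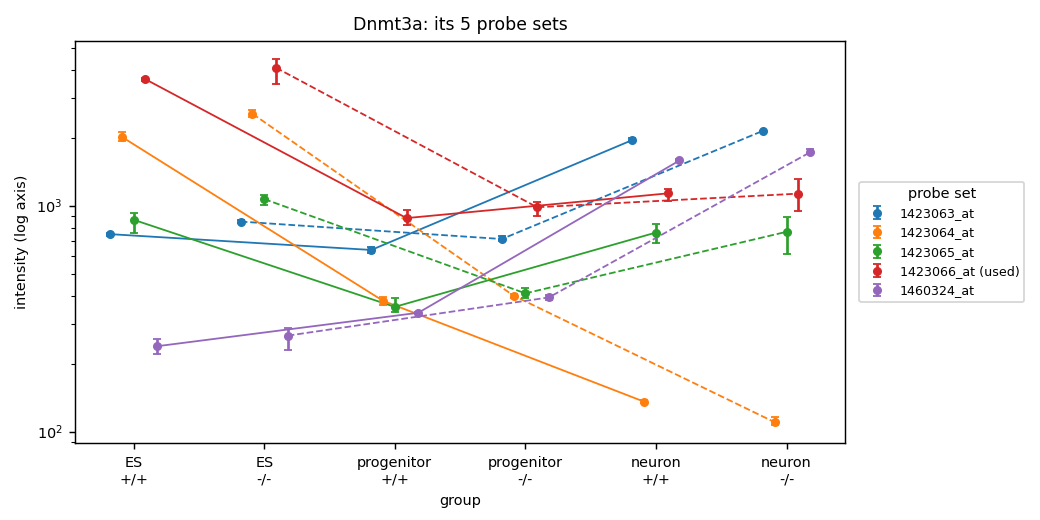
Mean intensity of the 5 Dnmt3a probe sets in each of the 6 groups on a log axis, with bars from the lowest to the highest of 3 arrays. Solid lines join +/+ groups and dashed lines -/- groups. From progenitors to neurons 1 probe set (in orange) goes down and 4 go up.

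The TET genes, whose products oxidise methylated cytosine, split in their course. Tet1 and Tet2 fell from ES cells to progenitors and then rose in part in neurons, while Tet3 rose at the first step. Tet1 read 5116, 4905 and 5256 on the +/+ ES arrays, 245, 210.3 and 224 on the progenitor arrays and 823, 762 and 762 on the neuron arrays. Tet1 in the -/- groups was at 4477, 4432 and 4439 (ES cells), 216, 222 and 214 (progenitors) and 888, 971 and 828 (neurons). Progenitor arrays were lowest, neuron arrays intermediate and ES arrays highest, with no overlap. Tet1 fell 22.4-fold in +/+ cells (log2 difference -4.49, SE 0.06, adjusted p 2.27e-18) and rose 3.45-fold at the second step (log2 difference 1.79, SE 0.06, adjusted p 1.33e-13). Its 3 other probe sets also read below 0 at the first step, from -4.35 to -1.56.

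Tet2 read 1134, 938 and 1007 on the +/+ ES arrays, 202, 164 and 216 on the progenitor arrays and 514, 539.7 and 518 on the neuron arrays. Tet2 in the -/- groups was at 921, 983 and 916 (ES cells), 226, 206 and 245 (progenitors) and 585, 670.4 and 583 (neurons). Tet2 followed the same order of cell types, with a fall of 5.28-fold (log2 difference -2.40, SE 0.10, adjusted p 4.6e-13) and then a rise of 2.7-fold (log2 difference 1.43, SE 0.10, adjusted p 4.15e-10). Tet3 read 46.7, 66.7 and 69.7 on the +/+ ES arrays, 82.3, 82.7 and 80 on the progenitor arrays and 81.1, 84.5 and 81.2 on the neuron arrays. Tet3 in the -/- groups was at 62.3, 52.2 and 51.7 (ES cells), 95.8, 79.7 and 96.4 (progenitors) and 99.9, 67.7 and 88.7 (neurons). Tet3 rose at the first step (log2 difference 0.44, SE 0.14, adjusted p 0.0105), a call that ended without +/+ ES replicate 1 (log2 difference 0.26, adjusted p 0.0790), and the second step was not called (log2 difference 0.01, SE 0.14, adjusted p 0.95).

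**Figure D3:**
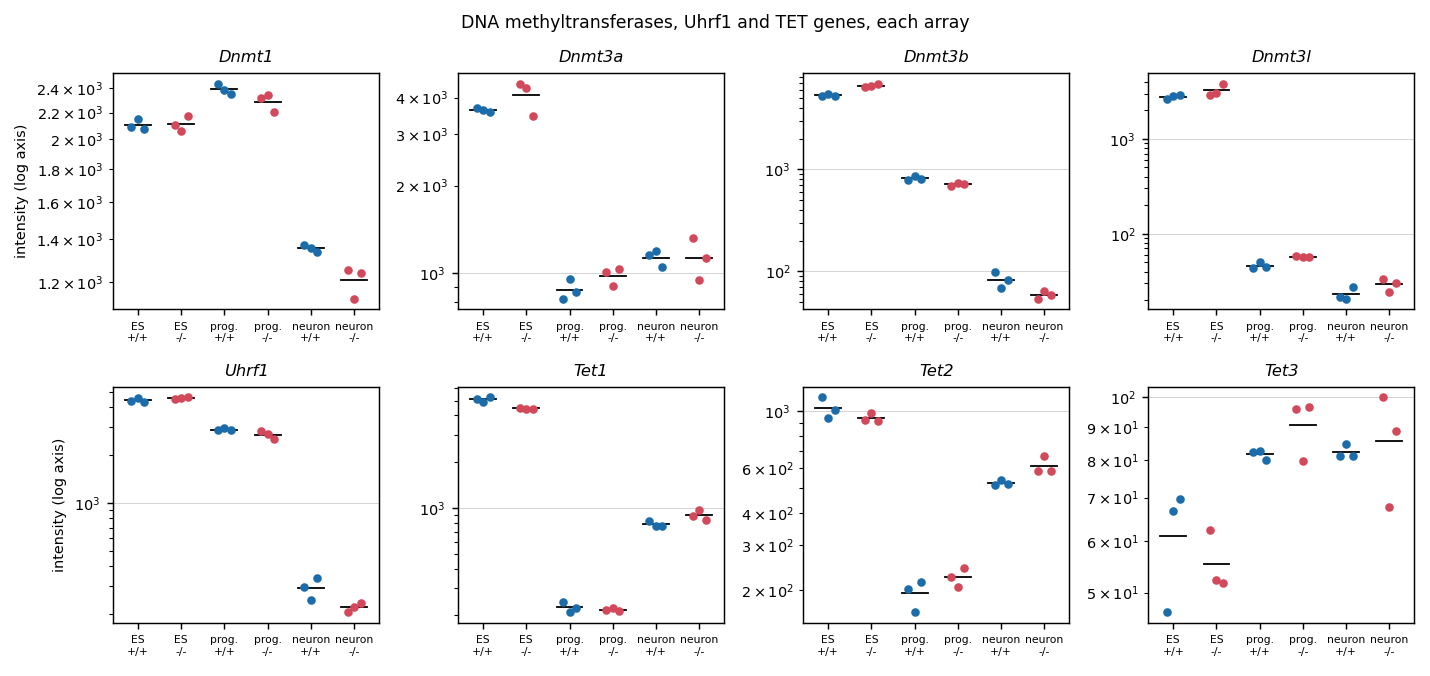
Intensity on a log axis (each panel has its own range) of 8 DNA methylation genes on every array, in blue for +/+ and red for -/-, with a black line at the mean of 3 arrays; prog. stands for neural progenitors. Dnmt3b steps down into progenitors and again into neurons, Uhrf1 stays high until the neurons, and Tet1 and Tet2 are lowest in progenitors.

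Among the MBD genes the changes were smaller. Mbd4, a DNA glycosylase that removes mismatched bases at CpG sites, fell at both steps in +/+ cells (log2 differences -0.95 and -0.68, adjusted p 2.03e-07 and 1.11e-05). Mbd3, a subunit of the NuRD remodelling complex, fell 2.07-fold at the second step (log2 difference -1.05, SE 0.08, adjusted p 1.35e-09) from 814 to 831 on the +/+ progenitor arrays to 369 to 444 on the +/+ neuron arrays. Mbd2, the methyl-binding counterpart of Mbd3 in NuRD, rose at the first step (log2 difference 0.58, SE 0.07, adjusted p 1.11e-06) and fell at the second (log2 difference -0.27, SE 0.07, adjusted p 0.00237). Mbd1 rose at both (0.45 and 0.27), but 2 of its 3 kept probe sets read -0.19 and -0.57 at the second step.

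The core of PRC2 fell as ES cells differentiated: all 4 core genes fell at the first step in +/+ cells, and Ezh2 and Eed fell again in neurons. Ezh2 read 3324, 3297 and 3347 on the +/+ ES arrays, 2690.1, 2642 and 2835 on the progenitor arrays and 953, 938 and 943 on the neuron arrays. Ezh2 in the -/- groups was at 3224, 3358 and 3385 (ES cells), 2836, 2852 and 3017 (progenitors) and 767, 852 and 767 (neurons). Ezh2, the main catalytic subunit in dividing cells, was a little lower in progenitors than in ES cells and low on all neuron arrays. It fell 1.22-fold at the first step (log2 difference -0.29, SE 0.05, adjusted p 6.4e-05) and 2.88-fold at the second (log2 difference -1.53, SE 0.05, adjusted p 5.6e-14). Eed read 4928, 5029.5 and 5097 on the +/+ ES arrays, 2034, 2059.8 and 2041 on the progenitor arrays and 698, 671 and 715 on the neuron arrays. Eed in the -/- groups was at 4959.9, 4705 and 4846 (ES cells), 1936, 1995 and 1860.2 (progenitors) and 591, 649 and 674 (neurons). Eed, which binds the mark that PRC2 makes, went down by similar amounts at each step (log2 difference -1.29, SE 0.05, adjusted p 5.14e-13, then log2 difference -1.56, SE 0.05, adjusted p 6.16e-14).

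Suz12 read 3359, 3134 and 3252 on the +/+ ES arrays, 1445, 1461 and 1442 on the progenitor arrays and 1366, 1408 and 1364 on the neuron arrays. Suz12 in the -/- groups was at 3331, 3164 and 2828 (ES cells), 1478, 1442 and 1481 (progenitors) and 1403, 1426 and 1327 (neurons). Suz12, the scaffold of PRC2, fell 2.24-fold at the first step (log2 difference -1.16, SE 0.06, adjusted p 5.17e-12), and its second-step difference was not called (log2 difference -0.07, SE 0.06, adjusted p 0.25). Ezh1 read 282, 288 and 284 on the +/+ ES arrays, 169, 176 and 159.5 on the progenitor arrays and 195, 185 and 183 on the neuron arrays. Ezh1 in the -/- groups was at 312, 291 and 292 (ES cells), 115, 103 and 95 (progenitors) and 175, 214 and 208 (neurons). Ezh1, the alternative catalytic subunit that is known for its place in non-dividing cells, was lower in progenitors than in ES cells (log2 difference -0.76, SE 0.08, adjusted p 9.16e-08). In neurons its difference from progenitors was not called in +/+ cells (log2 difference 0.16, SE 0.08, adjusted p 0.0633) but was a rise in -/- cells (log2 difference 0.92, SE 0.08, adjusted p 6.76e-09), where the progenitor arrays were the lowest of all groups.

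Of the 5 PRC2 accessory genes, 3 fell at the first step in +/+ cells. Jarid2, a cofactor of PRC2 in ES cells, read 4508, 4432 and 4302 on the +/+ ES arrays and 1379, 1477 and 1389 on the +/+ progenitor arrays (log2 difference -1.64, SE 0.07, adjusted p 1.57e-12). Mtf2, a Polycomb-like protein that helps bring PRC2 to CpG-rich DNA, also fell (log2 difference -1.26, SE 0.08, adjusted p 1.47e-10), as did Aebp2, a DNA-binding cofactor, by a small amount (log2 difference -0.15, SE 0.06, adjusted p 0.0261). The call for Aebp2 ended without replicate 1 or 2 of either +/+ group (adjusted p 0.0595 to 0.0879). Phf1, another Polycomb-like protein, rose at the second step (log2 difference 0.60, SE 0.11, adjusted p 0.000124) from 86.2 to 101 on the +/+ progenitor arrays to 133 to 159 on the +/+ neuron arrays. Phf19, the remaining Polycomb-like gene, read 60.3 to 87.2 on all +/+ arrays, and its only call in +/+ cells was a small second-step fall (log2 difference -0.16, SE 0.07, adjusted p 0.0497) that ended with a pseudocount of 16 (adjusted p 0.0589).

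Among the PRC1 genes, single members of each family went in opposite directions. Of the catalytic pair, Ring1 was called at neither step in +/+ cells (log2 differences -0.12 and 0.08) and Rnf2 only slightly at both (0.12 and -0.17). The mean over the probe sets of Rnf2 gave -0.03 at the first step (adjusted p 0.643). In the PCGF family, Bmi1 rose and Pcgf6 fell. Bmi1 read 202, 218 and 191 on the +/+ ES arrays, 1213, 1177 and 1156 on the progenitor arrays and 816, 845 and 863 on the neuron arrays. Bmi1 in the -/- groups was at 255, 271 and 257 (ES cells), 1021, 1077 and 948 (progenitors) and 704, 837 and 792 (neurons). Bmi1, the PCGF subunit known for its part in neural stem cell renewal, rose 5.78-fold at the first step (log2 difference 2.53, SE 0.07, adjusted p 2.89e-15) and fell at the second (log2 difference -0.49, SE 0.07, adjusted p 4.45e-06). Pcgf6 read 2533, 2507 and 2545 on the +/+ ES arrays, 990.3, 962 and 1012 on the progenitor arrays and 658, 657 and 601 on the neuron arrays. Pcgf6 in the -/- groups was at 2649, 2691 and 2949.9 (ES cells), 853, 879 and 839 (progenitors) and 589.7, 649 and 654 (neurons). Pcgf6, found in a PRC1 form that silences germline genes in ES cells, was highest on the 6 ES arrays (log2 difference -1.36, SE 0.06, adjusted p 8.24e-13).

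Pcgf5 read 766, 791 and 747 on the +/+ ES arrays, 1289, 1339.7 and 1330.1 on the progenitor arrays and 473, 474 and 529 on the neuron arrays. Pcgf5 in the -/- groups was at 824, 823 and 886 (ES cells), 1395, 1350.5 and 1349 (progenitors) and 358, 331 and 386 (neurons). Pcgf5, of another variant PRC1, was highest in progenitors and lowest in neurons, with a rise (log2 difference 0.78, SE 0.06, adjusted p 3.03e-09) followed by a fall (log2 difference -1.42, SE 0.06, adjusted p 1.19e-12). Its other kept probe set read 1.13 and -0.08 at these steps. Pcgf1, the partner of Kdm2b in variant PRC1, fell at the first step and rose at the second (-0.37 and 0.40). Kdm2b, which binds unmethylated CpG sites, did likewise (-0.66 and 0.23), its second-step call ending without +/+ progenitor replicate 3 (adjusted p 0.0613). Pcgf3 was called higher at both steps (0.29 and 0.33), and the mean over its probe sets ended both calls (-0.06 and 0.15, adjusted p 0.458 and 0.0698). Pcgf2 was called at neither (-0.07 and 0.12), staying between 54.1 and 68.0 on the 9 +/+ arrays. The mean over the probe sets of Pcgf2 changed the sign of its second-step value, as given below.

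The CBX genes, whose products read the PRC2 mark, differed in their course. Cbx7 fell, Cbx2 and Cbx8 rose into progenitors, and Cbx6 rose in neurons. Cbx7 read 939, 943 and 952 on the +/+ ES arrays, 177, 174 and 167 on the progenitor arrays and 105, 98.9 and 107 on the neuron arrays. Cbx7 in the -/- groups was at 1019, 1089 and 1105 (ES cells), 144, 139 and 143 (progenitors) and 79.2, 75.6 and 90.5 (neurons). Cbx7, the main CBX protein of ES cell PRC1, fell 5.44-fold at the first step in +/+ cells (log2 difference -2.44, SE 0.06, adjusted p 1.11e-15) and 1.66-fold at the second (log2 difference -0.73, SE 0.06, adjusted p 6.97e-09). Cbx2 read 208, 178 and 162 on the +/+ ES arrays, 376, 374 and 316 on the progenitor arrays and 96.2, 98 and 99.2 on the neuron arrays. Cbx2 in the -/- groups was at 204, 198 and 194 (ES cells), 328, 341 and 356 (progenitors) and 96.3, 86.6 and 106 (neurons). Cbx2, known for compacting chromatin, peaked in progenitors, with a rise of 1.94-fold (log2 difference 0.96, SE 0.09, adjusted p 3.12e-08) and a fall of 3.59-fold (log2 difference -1.85, SE 0.09, adjusted p 5.45e-12).

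Cbx8 read 58.9, 73.2 and 66.9 on the +/+ ES arrays, 124, 129.5 and 132 on the progenitor arrays and 92.2, 104 and 98.9 on the neuron arrays. Cbx8 in the -/- groups was at 49.4, 52.3 and 54.5 (ES cells), 104, 110.0 and 104 (progenitors) and 89.2, 108 and 95.8 (neurons). Cbx8 likewise rose into progenitors (log2 difference 0.95, SE 0.08, adjusted p 8.38e-09) and fell in +/+ neurons (log2 difference -0.38, SE 0.08, adjusted p 0.000328). Cbx6 read 514, 522 and 444 on the +/+ ES arrays, 547, 523 and 526 on the progenitor arrays and 1521, 1406 and 1592 on the neuron arrays. Cbx6 in the -/- groups was at 386, 521 and 526 (ES cells), 574, 612 and 579 (progenitors) and 1554, 1614 and 1485 (neurons). Cbx6 was high on all 6 neuron arrays, with no call at the first step in +/+ cells (log2 difference 0.11, SE 0.10, adjusted p 0.303) and a rise of 2.83-fold at the second (log2 difference 1.50, SE 0.10, adjusted p 2.71e-10).

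The 3 PHC genes, whose products polymerise and cluster PRC1, also separated by cell type: Phc1 was high in ES cells, Phc2 in progenitors and Phc3 in neurons. Phc1 read 6188, 5447 and 5299 on the +/+ ES arrays, 1005, 1096 and 1072 on the progenitor arrays and 959.9, 929.8 and 931 on the neuron arrays. Phc1 in the -/- groups was at 5659.7, 5381 and 5506 (ES cells), 1038, 1049.6 and 1030.3 (progenitors) and 857, 707 and 752 (neurons). Phc1 fell 5.32-fold at the first step in +/+ cells (log2 difference -2.41, SE 0.07, adjusted p 6.58e-15). Phc2 read 257, 279 and 277 on the +/+ ES arrays, 2009, 2091 and 1994 on the progenitor arrays and 1209.8, 1119 and 1230.1 on the neuron arrays. Phc2 in the -/- groups was at 277, 339 and 329 (ES cells), 2379, 2209 and 2015 (progenitors) and 1008, 773 and 954 (neurons). Phc2 rose 7.48-fold, the largest rise among the members (log2 difference 2.90, SE 0.09, adjusted p 3.41e-14), and then fell (log2 difference -0.78, SE 0.09, adjusted p 9.88e-07).

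Phc3 read 127, 141 and 127 on the +/+ ES arrays, 276, 265 and 311 on the progenitor arrays and 854, 771 and 775 on the neuron arrays. Phc3 in the -/- groups was at 146, 140.4 and 149 (ES cells), 305, 298 and 326 (progenitors) and 803, 848 and 749 (neurons). Phc3 rose at both steps, 2.15-fold (log2 difference 1.10, SE 0.07, adjusted p 2.22e-10) and then 2.82-fold (log2 difference 1.49, SE 0.07, adjusted p 4.31e-12), with no overlap between cell types. Rybp, which was not tested with the members, averaged 5205 on the +/+ ES arrays, 2968 on the progenitor arrays and 3239 on the neuron arrays by the brighter of its probe sets, which cannot be told apart from Rybp-ps.

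**Figure D4:**
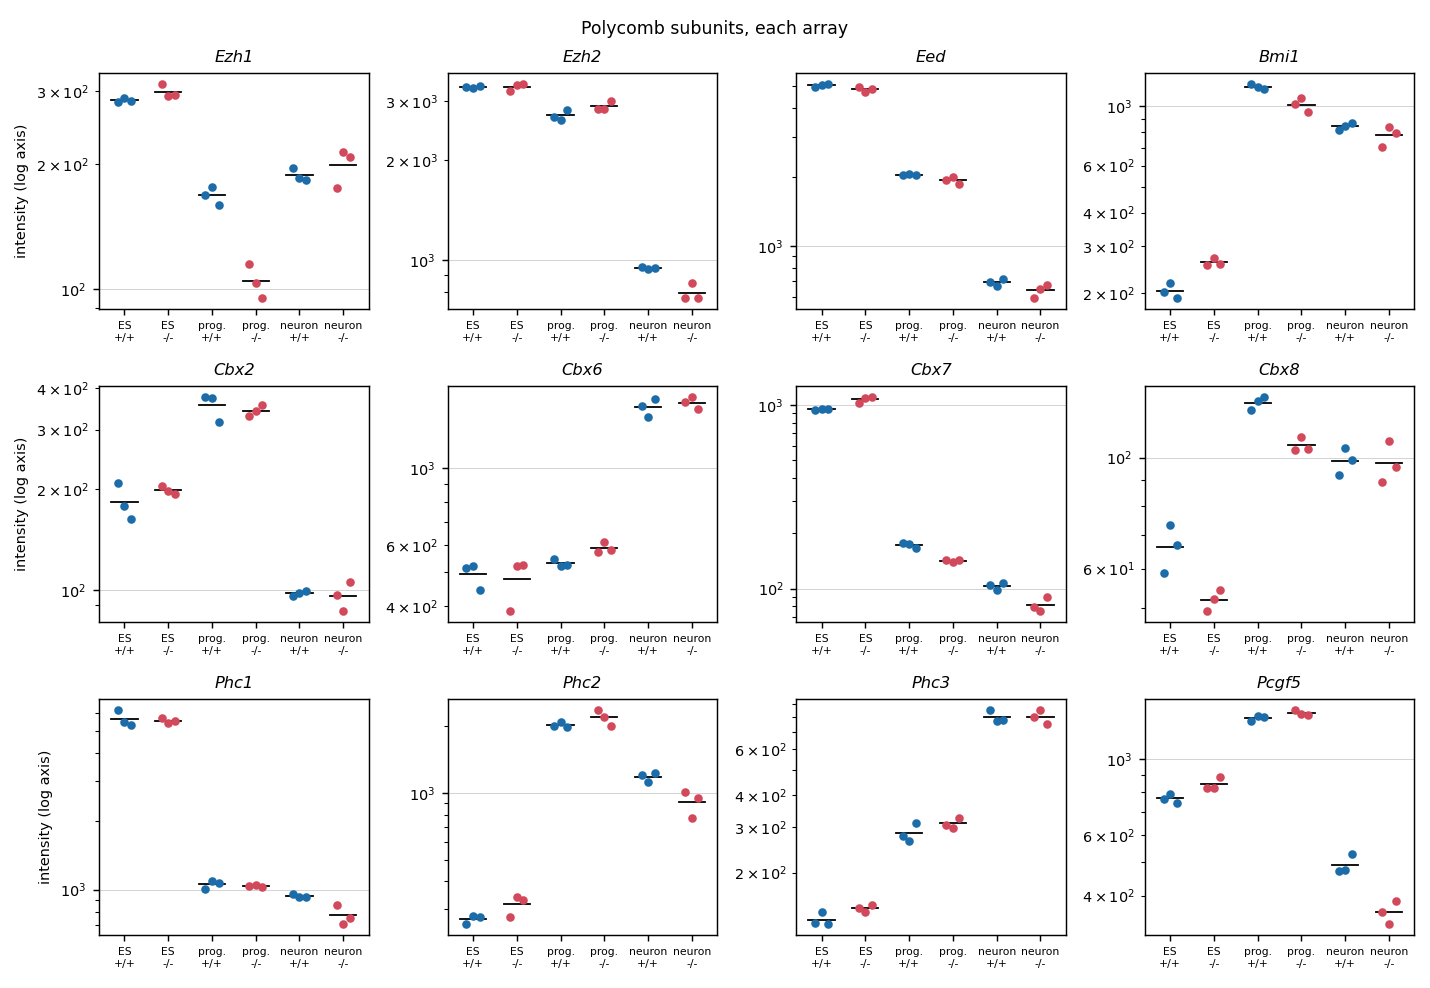
Intensity on a log axis (each panel has its own range) of 12 Polycomb genes on every array, in blue for +/+ and red for -/-, with a black line at the mean of 3 arrays; prog. stands for neural progenitors. Cbx7 and Phc1 are highest in ES cells, Cbx2, Bmi1 and Phc2 in progenitors, and Cbx6 and Phc3 in neurons.

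Between genotypes, few members differed in ES cells, and by small amounts. There 3 members were higher and 1 was lower in -/- than in +/+ cells, or 10.5% of the members against 14.9% of all tested genes (10.5% higher and 4.32% lower), a share no higher than the background. The median log2 difference was 0.03 for the members and 0.04 for all genes. Bmi1 was higher (log2 difference 0.36, SE 0.07, adjusted p 0.00294), with all -/- arrays (255 to 271) above all +/+ arrays (191 to 218), and its other probe set read 0.22. Dnmt3b was higher by 1.24-fold (log2 difference 0.32, SE 0.09, adjusted p 0.0346) and Mbd1 by 1.2-fold (log2 difference 0.27, SE 0.07, adjusted p 0.0192). Cbx8 was lower (log2 difference -0.34, SE 0.08, adjusted p 0.0106), at 49.4 to 54.5 against 58.9 to 73.2. Tet1 was not called in ES cells (log2 difference -0.19, SE 0.06, adjusted p 0.0517), although its -/- arrays lay below its +/+ arrays. Such separation of the genotypes held for 15 of 38 members and for 28.3% of all tested genes in ES cells. Dnmt3b and Mbd1 each lost the call without +/+ replicate 3, the array that stood apart (adjusted p 0.0886 and 0.0745), and without -/- replicate 3 (0.104 and 0.0729). Dnmt3b also lost it without +/+ replicate 1 (0.0800) and without -/- replicate 2 (0.0755). The mean over the probe sets of Mbd1 gave -0.00138. In a limma fit of the ES arrays alone, 0 members were called, where 1.62% of all tested genes were called. In that fit 10 members had an unadjusted p under 0.05, a count not made over all genes.

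In ES cells the Dnmt3a probe sets that were not used in the tests were 0.18, 0.34, 0.31 and 0.15 higher in -/- cells on the log2 scale, and the one used gave 0.16 (adjusted p 0.358). Adjusted over all kept probe sets, the 4 had p-values of 0.0179, 0.00158, 0.109 and 0.214. The call for Dnmt3a in ES cells thus depends on the probe set.

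In progenitors 5 members were lower and 0 were higher in -/- cells, or 13.2% against 17% of all tested genes (7.81% higher and 9.19% lower). At an unadjusted p under 0.05 in limma, 3 were higher and 6 lower, counts that were not made over all genes. Ezh1 had the largest difference of the members, at 1.61-fold lower (log2 difference -0.69, SE 0.08, adjusted p 6.99e-06), with -/- arrays at 95.0 to 115 and +/+ arrays at 160 to 176. Its other kept probe set gave -0.18 (adjusted p 0.72), so this difference rests on 1 of 2 probe sets. Cbx7 was lower by 1.22-fold (log2 difference -0.28, SE 0.06, adjusted p 0.00324), where its other kept probe set gave -0.02 and the mean of both ended the call (adjusted p 0.108). Cbx8 (log2 difference -0.28, SE 0.08, adjusted p 0.023), Bmi1 (log2 difference -0.22, SE 0.07, adjusted p 0.0334) and Pcgf6 (log2 difference -0.20, SE 0.06, adjusted p 0.019) were lower as well, with no overlap between genotypes. Such a lack of overlap held for 18 of 38 members and for 40.8% of all tested genes in progenitors. The last 3 genes lost the call when 1 array was left out: Bmi1 for any array but -/- replicate 2, Cbx8 for +/+ replicates 2 and 3 and -/- replicates 1 and 3, and Pcgf6 for replicates 1 and 3 of either genotype. The adjusted p then ran from 0.0578 to 0.155. Several pluripotency genes moved with these differences. Klf4 (-1.09), Dppa5a (-0.82), Pou5f1 (-0.76), Nanog (-0.68), Zfp42 (-0.61) and Tdgf1 (-0.42) were lower in -/- progenitors, with no overlap between genotypes (log2 differences, limma adjusted p at most 0.028). The other pluripotency genes were not called, with Fgf4 (0.18), Sox2 (0.11) and Esrrb (0.03) above 0 and Utf1 (-0.16) below. Of the progenitor and neuronal markers, Nes (0.43), Gap43 (0.42) and Elavl4 (0.30) were called higher and Hes5 (-0.76) and Rbfox3 (-0.47) lower. The part of these genes in the lower values of the members, and that of the higher mesenchyme and lower endoderm markers given above, was not tested.

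In neurons 8 members were lower and 0 were higher in -/- cells, or 21.1% against 13.2% of all tested genes. By direction, 5.95% of all genes were higher and 7.27% lower. At an unadjusted p under 0.05 in limma, 3 members were higher and 11 lower, counts that were not made over all genes. The median log2 difference, however, was -0.02 for both the members and all genes. The 8 genes were Dnmt3b, Uhrf1 and Dnmt1, the PRC2 enzyme Ezh2, and the PRC1 subunits Pcgf5, Phc2, Cbx7 and Phc1. Dnmt3b was lower by 1.39-fold (log2 difference -0.48, SE 0.09, adjusted p 0.00259), at 54.1 to 63.5 against 68.7 to 98.3, and its other probe set gave -0.43. Uhrf1 was lower by 1.31-fold (log2 difference -0.39, SE 0.09, adjusted p 0.00561), at 207 to 235 against 247 to 338, with -0.67 on its other probe set. Ezh2 was lower by 1.19-fold (log2 difference -0.25, SE 0.05, adjusted p 0.00328), and that call was kept under every alternative. Dnmt1 was lower by 1.12-fold (log2 difference -0.16, SE 0.05, adjusted p 0.0343), a call that ended without any single +/+ array or without -/- replicate 2 (adjusted p 0.0620 to 0.161).

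The proliferation genes moved with this group. In -/- neurons 12 of the 19 tested were lower and 0 higher, with a median log2 difference of -0.30, and their summed intensity was 11839 to 14154 in +/+ and 10691 to 11514 in -/- neurons. Endoderm markers were lower in -/- neurons as well, with log2 differences of -1.26 for Sox17, -0.94 for Gata6, -0.65 for Gata4 and -0.62 for Sox7. The pluripotency genes Dppa5a (-0.66) and Klf4 (-0.48), the progenitor genes Pax6 (-0.32) and Nes (-0.30) and the neuronal gene Dcx (-0.29) were also lower. No other marker of these lists was called. Above 0 were the progenitor genes Vim (0.11), Notch1 (0.09), Fabp7 (0.07) and Sox9 (0.07). So were the neuronal genes Snap25 (0.09) and Gap43 (0.02) and the endoderm markers Foxa2 (0.28) and Afp (0.10). Most of the pluripotency genes lay above 0 too: Nanog (0.28), Pou5f1 (0.14), Utf1 (0.09), Tdgf1 (0.08), Zfp42 (0.05) and Sox2 (0.002). The summed progenitor genes were at 26439.5 to 28693 in +/+ and 28309 to 30365 in -/- neurons. The part of dividing cells in the differences of Dnmt1, Uhrf1 and Ezh2, and that of the higher mesenchyme, lower endoderm and other lower markers in the neuron differences, was not tested. Pcgf5 was lower by 1.37-fold (log2 difference -0.46, SE 0.06, adjusted p 8.25e-05), at 331 to 386 against 473 to 529, while its other kept probe set gave 0.04. Phc2 was lower by 1.31-fold (log2 difference -0.39, SE 0.09, adjusted p 0.0118) and Phc1 by 1.22-fold (log2 difference -0.29, SE 0.07, adjusted p 0.0104). Both calls ended without -/- replicate 2 (adjusted p 0.0653 and 0.0602), whose values were the lowest of their groups. Cbx7 was lower by 1.27-fold (log2 difference -0.34, SE 0.06, adjusted p 0.00112), but its other kept probe set gave 0.00 and the mean of both ended the call (adjusted p 0.0787). In a fit of the neuron arrays alone, the calls of Dnmt3b, Uhrf1, Dnmt1, Phc1 and Phc2 ended (adjusted p 0.0539 to 0.142). Of all tested genes, 8.95% were called in that fit. No TET or MBD gene was called in neurons.

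**Figure D5:**
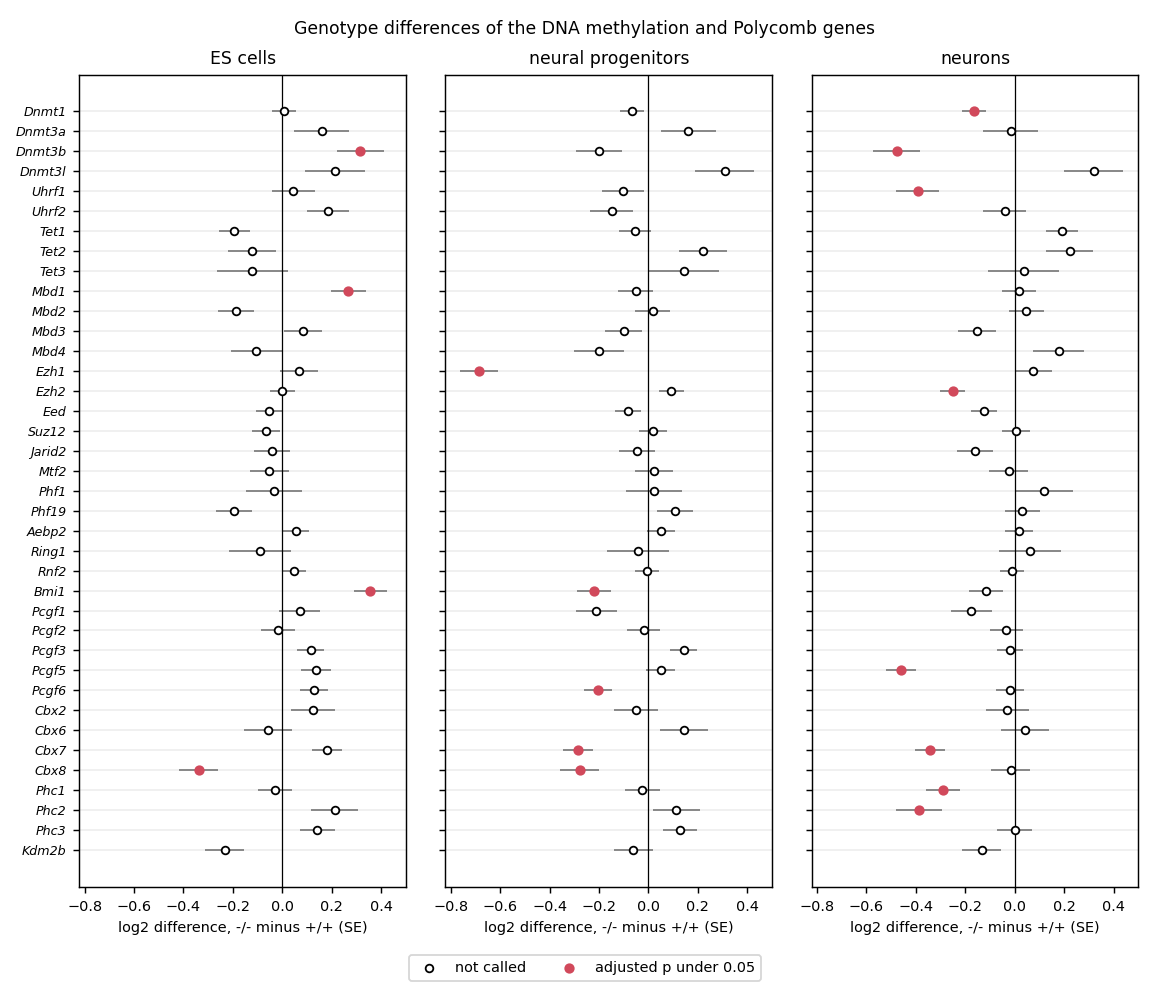
The log2 difference between -/- and +/+ cells (positive is higher in -/-) for the 38 tested members in the 3 cell types, with its SE. The SE is from the fit of all 18 arrays as 6 group means, which share 1 estimate of the spread for each gene. Filled points passed an adjusted p under 0.05: 4 members of ES cells, 5 of progenitors and 8 of neurons, those of the neural cells all to the left of 0.

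Whether the genotype differences themselves differed between cell types was tested by interaction. Progenitors against ES cells gave 6 members, all with a lower value in progenitors (15.8% against 16.3% of all tested genes, of which 5.71% were higher and 10.6% lower). Neurons against progenitors gave 1 higher and 3 lower (10.5% against 11.1%, of which 5.67% were higher and 5.41% lower). Neurons against ES cells gave 1 higher and 7 lower (21.1% against 15.7%, of which 4.7% were higher and 11% lower). Dnmt3b, higher in -/- ES cells and lower in -/- neurons, had the largest interaction between those cell types (log2 difference -0.79, SE 0.13, adjusted p 0.00103). Bmi1 went from higher in -/- ES cells to lower in -/- progenitors (log2 difference -0.58, SE 0.10, adjusted p 0.000637). Ezh1 differed between progenitors and ES cells (log2 difference -0.75, SE 0.11, adjusted p 0.000175) and between neurons and progenitors (log2 difference 0.76, SE 0.11, adjusted p 0.000247), 2 tests that share the progenitor arrays, and the mean over its probe sets ended both calls (adjusted p 0.171 and 0.0766). Tet1 had the only positive interaction between neurons and ES cells among the members (log2 difference 0.39, SE 0.09, adjusted p 0.00969), with neither single difference called (-0.19 and 0.19).

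Of 43 further genes of DNA methylation and Polycomb function, 40 were tested. In +/+ cells 14 rose and 20 fell at the first step, or 34 of 40 where 78.5% of all tested genes were called. At the second, 15 rose and 17 fell, or 32 of 40 where 79% of all genes were called. Dppa3, a factor of the germline and early embryo, fell most at the first step (-4.10), followed by Mga (-2.53), a partner of PCGF6, and Apobec1 (-1.82). Yaf2, a relative of Rybp, rose most (2.05). Hells, a chromatin remodeller needed for DNA methylation, fell most at the second step (-3.08), and E2f6, a repressor found with PCGF6, also fell (-1.32). Between genotypes, 6 were higher and 4 lower in -/- ES cells, or 10 of 40 where 14.9% of all genes were called. In -/- progenitors 2 were higher and 3 lower, or 5 of 40 where 17% of all genes were called. In -/- neurons 2 were again higher and 3 lower, or 5 of 40 where 13.2% of all genes were called. Bap1, which removes the PRC1 mark from histone H2A, was lower in -/- cells of all 3 types (-0.32, -0.20 and -0.30, adjusted p 0.00232, 0.0292 and 0.00225). Gadd45g (0.77) and Sfmbt2 (0.66) were higher in -/- ES cells, Gadd45b was higher in -/- progenitors and neurons (0.31 and 0.49), and Hells was lower in -/- neurons (-0.40).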

How the data were processed

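Total RNA from 18 samples was hybridised to Affymetrix arrays. The authors deposited linear intensity values, 1 for each probe set (a group of probes read as 1 value, which may match more than 1 transcript). The submitters' processing notes name RMA and limma, with versions and settings not given in the sources used here. Of 45101 probe sets, 64 were controls, 34945 carried 1 gene symbol, 932 several and 9160 none in the platform table. Values were taken to log2(value + 1). Probe sets at or above an array's 40th percentile on 3 or more arrays were kept, and each gene was read from its kept probe set with the highest mean. That choice lay between several probe sets for 25 members.

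Differences were fitted with limma 3.58.1 (R 4.3.3) as 6 group means, with 12 residual degrees of freedom. P-values were Benjamini-Hochberg adjusted over 14432 genes, and a gene was called at an adjusted p under 0.05. Per-probe-set values come from the same fit over all kept probe sets. The number of arrays limits the precision. The script was tested on simulated data for the genotype comparison in ES cells, with the same spread in every group. That test cannot show how calls behave where the spread differs between groups.

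The members and gene lists were chosen with earlier results of these data known. Full values were planned for the DNMT, UHRF, TET, PRC2 core and CBX genes and for the members with the largest called differences. Alternatives were the pseudocount, 2 other filters, quantile normalization, the mean of probe sets, array weights, fewer arrays and a replicate block.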

Additional observations from a re-analysis of the deposited data

Results flagged for a closer look

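For 18 results the genotype difference (-/- minus +/+) in 1 cell type differed from that in another by an interaction test at a limma adjusted p under 0.05. Values are differences of log2 differences.

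Between progenitors and ES cells the difference was lower in progenitors for Ezh1 (-0.75), Bmi1 (-0.58), Dnmt3b (-0.51), Cbx7 (-0.46), Pcgf6 (-0.33) and Mbd1 (-0.32). Between neurons and progenitors it was higher in neurons for Ezh1 (0.76) and lower for Pcgf5 (-0.51), Phc2 (-0.50) and Ezh2 (-0.34). Between neurons and ES cells it was lower in neurons for Dnmt3b (-0.79), Phc2 (-0.60), Pcgf5 (-0.59), Cbx7 (-0.52), Bmi1 (-0.47), Uhrf1 (-0.44) and Ezh2 (-0.25), and higher for Tet1 (0.39). The 3 sets of tests share arrays, so they are not independent of each other.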

How the results depend on the processing

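Of the members' calls, 103 of 126 at the differentiation steps, 3 of 17 between genotypes and 11 of 18 interactions were kept under every alternative. The 3 genotype calls were Ezh1 in progenitors and Ezh2 and Pcgf5 in neurons. Reading a gene from its other probe set was not among the alternatives. Those of Ezh1 and Pcgf5 gave smaller differences, as stated above. In ES cells the count of called members went from 4 to 7 with a pseudocount of 16, with a 60th percentile filter and with the mean of probe sets. The share of all genes called went from 14.9% to 15.7%, 19.6% and 13.6%. The count of members went to 2 with array weights and to 0 with only the arrays compared (limma, 10 at an unadjusted p under 0.05). Of all genes, 7.8% and 1.62% were called there. In progenitors the count went from 5 to 10 with array weights and with only the arrays compared. There the share of all genes went from 17% to 27.6% and 23.2%. In neurons the count went from 8 to 3 with only the arrays compared, where the share of all genes went from 13.2% to 8.95%. For the interaction of neurons with progenitors it went from 4 to 7 with array weights, and the share of all genes is not given here. Leaving out 1 array gave 2 to 6 called members in ES cells (2 without +/+ replicate 3 or -/- replicate 3), 2 to 5 in progenitors and 6 to 9 in neurons. In progenitors it gave 2 without +/+ replicate 3, -/- replicate 1 or -/- replicate 3, and 3 without +/+ replicate 1 or 2. With 1 array left out, 9.96% to 15.4% of all genes were called in ES cells, 12.5% to 13.1% in progenitors and 9.01% to 11.1% in neurons.

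With the mean of probe sets, 10 values changed sign. They were Mbd1 in ES cells (-0.00138), Pcgf3 (-0.0612) and Rnf2 (-0.0276) at the first step in +/+ cells, Mbd1 (-0.16 and -0.16), Pcgf2 (-0.24 and -0.26) and Pcgf6 (0.14 and 0.30) at the second step in +/+ and -/- cells, and the interaction of Mbd1 between progenitors and ES cells (0.0174). The cause was not tested.

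Same-numbered arrays of a cell type did not deviate together (9 pairs, correlations -0.138 to 0.0668). With the replicate number as a block, 7 of 380 member results lost the call, 2 gained it and 0 changed sign. The count of called members was then 4 (ES cells), 5 (progenitors) and 7 (neurons), where 13.5%, 16.1% and 12.1% of all genes were called.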

Other observations

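Beyond Dnmt3a, 3 members had probe sets called in opposite directions at the second step in +/+ cells, by the limma fit over all kept probe sets. Pcgf6 gave log2 differences of -0.63, -0.41 and 1.47 on its 3 kept probe sets, and Mbd1 gave 0.27, -0.19 and -0.57. Mtf2 ran from -0.68 to 0.38 over 6 probe sets. At the first step Pcgf3 (0.29, -0.55 and 0.08) and Rnf2 had such probe sets. Tet2's other probe set, by contrast, gave -2.49 and then 2.45, the same directions as the one used.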
